A study of Homo sapiens with 6 samples.

Results

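The genes described here are the p53 circuit of the cell: the regulators MDM2, MDM4, PPM1D and CCNG1, and 26 further genes that p53 is known to switch on. They were taken as a list of 30 symbols, matched through their Ensembl identifiers to the 20263 genes of the count table. All 30 were in the table, and 26 had enough reads to be tested among 12690 genes. The libraries come from MV4-11 cells, an acute myeloid leukemia line of human origin with an activating duplication in FLT3 (FLT3-ITD), and the study asked what cyclosporine A (CSA, a calcineurin inhibitor that binds cyclophilins) adds to venetoclax (an inhibitor of the survival protein BCL2). Cells were kept for 24 h in venetoclax at 100 nM, in CSA at 2.5 µM or in both drugs, and the labels do not give the doses of the combination separately. Each of the 3 groups had 2 libraries. Every library is of this 1 line, the genotype entry of all of them reads WT without naming a gene, and no label says whether replicates are separate cultures, so the spread behind the p-values may be technical. No untreated library was analysed here, so each result sets one treatment against another.

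p53 is a transcription factor that is held low in unstressed cells because MDM2, a ubiquitin ligase, marks it for destruction, while the related MDM4 binds it and blocks its activity. When DNA damage, nucleolar stress or oncogene signals loosen that hold, p53 switches on genes that stop the cell cycle, repair DNA or lead to death. MDM2 is itself one of the genes that p53 switches on, which closes a feedback loop, so its transcript level is read both as a brake on p53 and as one of its outputs. The combination libraries held little MDM2 transcript, and the question put to the data was whether the other targets were low or high along with it.

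The feedback has a counterpart in the DNA of MDM2, which has a second set of transcription starts downstream of the first. The 250 bases before the third of its 4 RefSeq starts are shown because p53 is known to act on MDM2 through this inner promoter. They are chr12:68808767-68809016 of GRCh38.p14 (plus strand), in what is known as the first intron of transcripts from the outer starts. The p53 consensus is a pair of half-sites of 10 bases each. Capitals mark the matching bases of the best match found in the window, and any other match is left unmarked:
MDM2 inner promoter: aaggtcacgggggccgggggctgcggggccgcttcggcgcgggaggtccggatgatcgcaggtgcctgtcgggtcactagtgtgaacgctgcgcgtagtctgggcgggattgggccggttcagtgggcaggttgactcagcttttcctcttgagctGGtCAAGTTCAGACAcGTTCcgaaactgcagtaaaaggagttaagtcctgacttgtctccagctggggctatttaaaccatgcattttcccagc
The match runs from base -94 to base -75 counted from that start (chr12:68808923-68808942) and departs from the consensus at 2 positions, 1 in each half-site.

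Other members whose promoter windows hold a comparable match are printed with it, since they carry the same kind of sequence near a start and can be read against MDM2 in the expression data. Capitals again mark the bases that match the consensus, and the lower-case stretch between the half-sites of DDB2 and FDXR is the spacer between them:
MDM2: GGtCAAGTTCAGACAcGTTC
DDB2: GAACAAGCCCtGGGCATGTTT
AEN: GGGCTTGCCCGGGCATGTgg
FAS: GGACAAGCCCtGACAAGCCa
FDXR: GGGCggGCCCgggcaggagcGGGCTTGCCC
The DDB2 match (chr11:47214979-47214999, plus strand) begins 6 bases after the second of its starts and has 0 mismatches. The AEN match (chr15:88621306-88621325, plus strand), the FAS match (chr10:88991309-88991328, plus strand) and the FDXR match (chr17:74872996-74873025, minus strand) have 2 mismatches each. Windows of 300 bases around RefSeq starts were present for 23 of the 30 members, as 33 windows. A full site with up to 2 mismatches, a spacer of at most 13 bases and an intact C and G core, which reads the same on both strands, was found in 6 of these 33 windows (18.2%) and in 1030 of all 35116 windows (2.93%). Windows 3 and 4 of MDM2 overlap and hold the same site, so the 6 windows are not 6 separate sites. The MDM2 match has 2 mismatches, so a lower limit would leave it out. With up to 1 mismatch a full site was found in 1 of 33 and in 141 of 35116 (0.4015%). With 0 mismatches it was found in 1 of 33 and in 10 of 35116 (0.0285%). The members were listed as genes of the p53 circuit, so these shares are not independent evidence that p53 acts on them. A match describes letters in this window only, and the counts sum over all starts of a gene, so they do not say which MDM2 promoter was in use.

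The libraries held 26567900 to 30738957 counts each. Venetoclax replicate 2 stood apart, with 41.5% of its counts in genes of the mitochondrial genome against 7.41% to 15.2% in the other 5. The log2 differences between replicates over nuclear genes had an SD of 0.68 in the venetoclax pair, 0.33 in the CSA pair and 0.40 in the combination pair. The differences of the genes described in detail are therefore given from the fit of all 6 libraries and from the fit without that library, in which venetoclax is a single library assumed to vary like the other groups. Levels are depth-scaled counts (CPM, scaled between libraries by TMM), and differences are log2 fold changes from edgeR's quasi-likelihood test with a standard error (SE) and a Benjamini-Hochberg adjusted p over all genes tested, called below 0.05. When libraries were scaled by their size alone, the median over all genes was 0.26 against venetoclax, -0.04 against CSA and -0.31 for venetoclax against CSA, so differences are relative to the TMM scale. All 8 myeloid leukemia markers were detected in every library, from 5.46 to 926 CPM. The 16 markers of T, B, erythroid, epithelial and fibroblast cells reached at most 3.02 CPM, and 7 of them were at 0 throughout.

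MDM2 (chromosome 12, bases 68808176 to 68850686 of GRCh38, plus strand) was low in both combination libraries. It stood at 64.2 and 28.7 CPM with venetoclax, at 12.5 and 14.6 CPM with the combination, and at 58.8 and 57.9 CPM with CSA. Both combination libraries lay under all 4 single-agent libraries, and the lowest single-agent value was the library that stands apart.

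Against CSA, MDM2 was 4.30-fold lower in the combination, a log2 difference of -2.10 (SE 0.39) over 6 libraries with adjusted p = 0.708, which did not pass. Without venetoclax replicate 2 the difference was the same size, -2.11 (SE 0.12, 95% interval -2.42 to -1.80), and passed with adjusted p = 0.0215. Both CSA libraries and both combination libraries are in that fit, so what the left-out library moved was the estimate of spread. Against venetoclax the difference was -1.78 (SE 0.39, adjusted p = 0.256) over 6 libraries, where MDM2 ranked 206 by p among 12690 genes. Without replicate 2 the difference was -2.24 (SE 0.14, 95% interval -2.59 to -1.89). MDM2 was picked with results of these libraries known, so its p-values describe these libraries and are not independent evidence. DESeq2 on all 6 libraries gave an adjusted p of 0.00101 against venetoclax and 8.25e-05 against CSA. Without venetoclax replicate 1, which leaves the library that stands apart as the lone venetoclax library, the MDM2 difference against venetoclax was -1.08 with adjusted p = 0.0161. The 2 comparisons share the combination libraries and are not independent. In bulk RNA, fewer cells of a kind and less of a transcript per cell cannot be told apart.

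The MDM2 difference of venetoclax from CSA was -0.33 (SE 0.37, adjusted p = 0.697) and turned to 0.13 (SE 0.14, 95% interval -0.23 to 0.49, adjusted p = 0.999) without venetoclax replicate 2.

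Of the genes near MDM2 on chromosome 12, 6 were listed as its neighbours, and none of them was called over 6 libraries. These 6, RAP1B, NUP107, SLC35E3, CPM, CPSF6 and YEATS4, differed from CSA by between -0.04 and 0.23 on the log2 scale, with a median of 0.08. LYZ, which lies between CPSF6 and YEATS4, was not listed among them. The scaled level of LYZ was 329 and 400 with the combination, 390 and 463 with CSA, and 572 and 412 with venetoclax. Against venetoclax the 6 listed neighbours ranged from -0.62 to 0.38 over 6 libraries (median -0.22), where edgeR called 0 of 6. Without replicate 2 they ranged from -0.14 to 0.09. With venetoclax replicate 1 left out instead, they ranged from -1.06 to 1.07 against venetoclax and from -0.05 to 0.23 against CSA. The library that stands apart was then the whole venetoclax group. The carboxypeptidase M gene, whose symbol is also CPM, lies on the opposite strand and shares 8490 bases with the end of MDM2. The level of that gene was 24.2 and 28.9 on the same scale in the combination libraries, 28.0 and 12.6 with venetoclax, and 23.1 and 25.5 with CSA. Strand use in counting is not stated, so reads in the shared stretch cannot be assigned to either gene. The opposite gene was not low in the combination libraries, though both genes were low in venetoclax replicate 2. Another 9 members overlap a neighbouring gene in the same way, among them POLH, RPS27L, TP53INP1, XPC and TNFRSF10B.

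**Figure D1:**
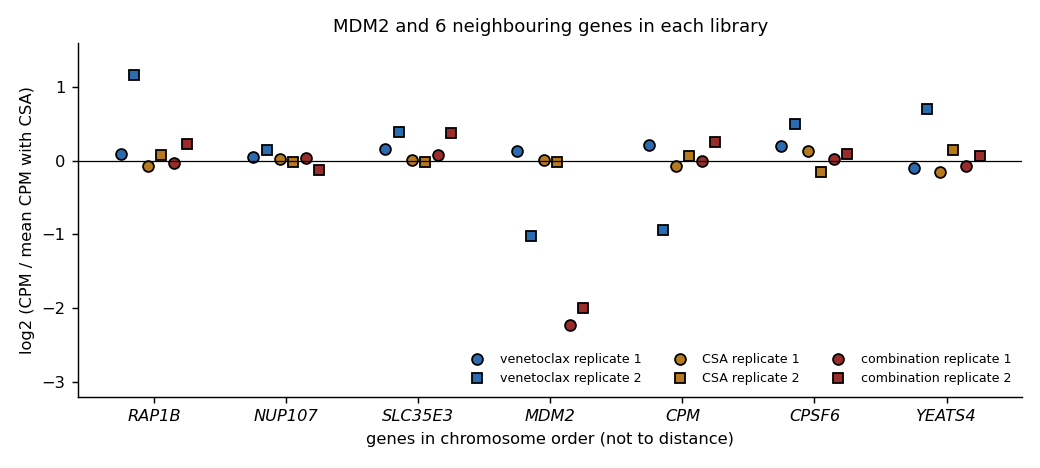
Level of MDM2 and its 6 listed neighbours (LYZ is not shown) in each library, as log2 of CPM over the mean CPM with CSA (vertical axis). Genes are in chromosome order (not to distance), with colours for treatment, circles for replicate 1 and squares for replicate 2. Both combination points of MDM2 lie far below 0, while those of the neighbours stay close to it, and the outlying points of RAP1B, YEATS4 and CPM are venetoclax replicate 2.

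Among the other regulators nothing was called in either fit. MDM4, the partner of MDM2 in holding p53 down, was at 11.4 and 12.03 CPM with the combination, 11.8 and 15.7 CPM with CSA, and 9.56 and 45.5 CPM with venetoclax. The value of 45.5 CPM is venetoclax replicate 2, and the other 5 libraries lie within 9.56 to 15.7 CPM. The MDM4 difference of the combination from venetoclax went from -1.23 (SE 0.68, adjusted p = 0.549) to 0.30 (SE 0.22, adjusted p = 0.557) without that library, and from CSA it was -0.23 (SE 0.67, adjusted p = 1.00), and -0.23 (SE 0.18, adjusted p = 0.605) without it. CCNG1, cyclin G1, a p53 target that recruits a phosphatase to MDM2, had the same pattern at 37.7 and 53.4 CPM with the combination, 39.3 and 38.7 CPM with CSA, and 41.8 and 118.6 CPM with venetoclax. Its difference of the combination from venetoclax was -0.81 (SE 0.48, adjusted p = 0.566), and 0.13 (SE 0.22, adjusted p = 0.814) without replicate 2. PPM1D, a phosphatase that switches p53 signalling off, lay between 17.8 and 23.4 CPM in all 6 libraries.

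**Figure D2:**
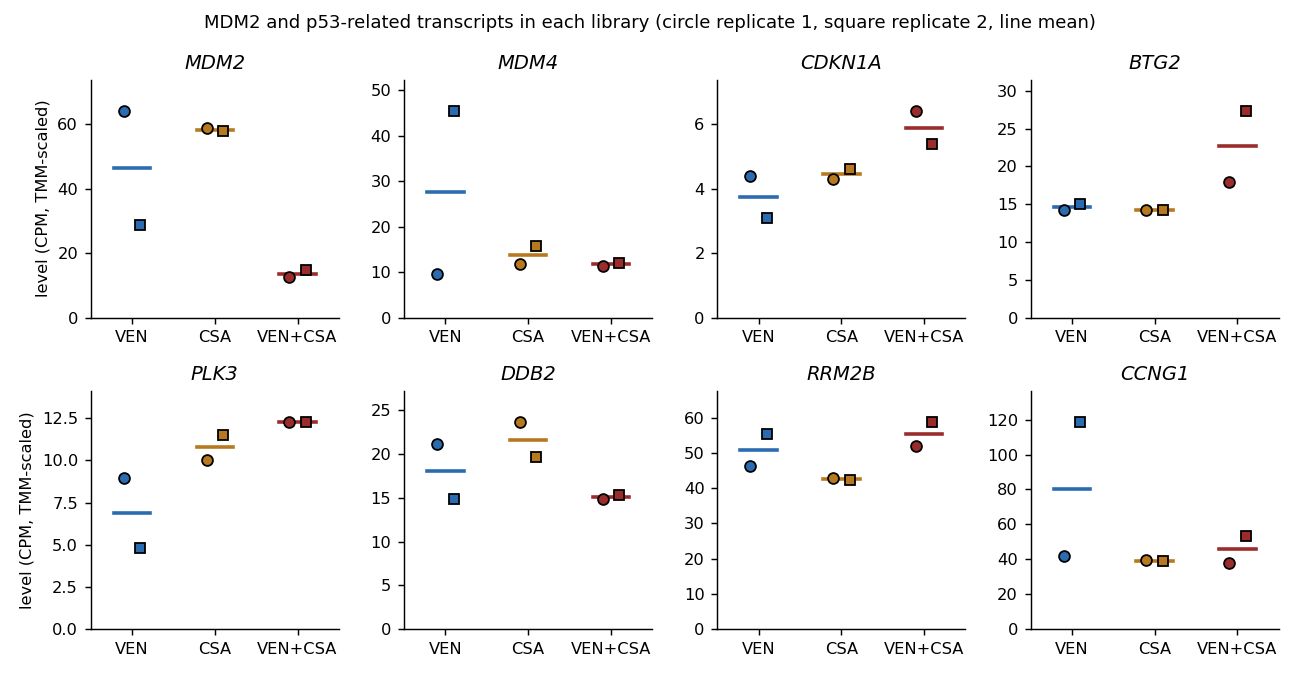
Level in CPM (vertical axes, from 0) of MDM2, MDM4, CDKN1A, BTG2, PLK3, DDB2, RRM2B and CCNG1 by treatment, where circles are replicate 1, squares replicate 2 and lines the group mean. MDM2 at 12.5 and 14.6 CPM in the combination is set apart from its 4 single-agent values, and venetoclax replicate 2 is the outlying point of MDM4 and CCNG1.

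The other targets lay on both sides of 0. With 6 libraries 0 of 26 members was called against venetoclax, where 0% of all genes were called, and 0 of 26 against CSA, where again 0% were. Without venetoclax replicate 2 MDM2 was the 1 member called in each comparison, beside 0.379% of all genes against venetoclax and 0.185% against CSA. Of the 26 tested members, 13 were above and 13 below 0 against venetoclax, with a median of -0.0041 beside -0.0083 over all genes. Scaled by library size alone the split was 20 and 6, with a median of 0.26 for the members and for all genes alike. Against CSA 12 were above and 14 below, with a median of -0.04 beside -0.0020 over all genes. Without venetoclax replicate 2 the medians were -0.05 and -0.04. DESeq2 on all 6 libraries called MDM2 as the 1 member in each comparison, beside 2.45% and 0.441% of all genes. When venetoclax replicate 1 was left out, so that the library that stands apart was the venetoclax group, 7 members were called against venetoclax (MDM2, MDM4, CCNG1, CDKN1A, PLK3, TNFRSF10B and AEN), beside 26.4% of all genes, and MDM2 stayed the 1 member called against CSA, beside 0.185%.

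The 95% intervals of the 25 other members describe their differences given the spread between these libraries, which may be technical. Each SE was derived from the fold change and the F statistic of the test. The intervals are not adjusted for the number of members and do not set a bound on how far a member moved. Over 6 libraries 13 of 25 had a 95% interval inside a change of 2-fold either way, in each comparison. Their differences ran from -1.23 (MDM4) to 0.83 (PLK3) against venetoclax and from -0.52 (DDB2) to 0.67 (BTG2) against CSA. The lowest bounds belonged to MDM4, at -2.91 against venetoclax, which passes the MDM2 estimate of -1.78 in that fit, and at -1.89 against CSA. In the fit without venetoclax replicate 2 the differences from CSA again ran from -0.52 (DDB2) to 0.67 (BTG2), and 19 of 25 intervals lay inside 2-fold. Against venetoclax they ran from -0.64 (TP53INP1) to 0.68 (BTG2), with 17 of 25 intervals inside 2-fold. The lowest bounds in that fit were -1.43 for FAS against CSA and -1.86 for TP53I3 against venetoclax, above the MDM2 estimates of -2.11 and -2.24. FAS and ZMAT3 had its widest intervals in both comparisons. A p that misses the threshold does not show that a member was unchanged.

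**Figure D3:**
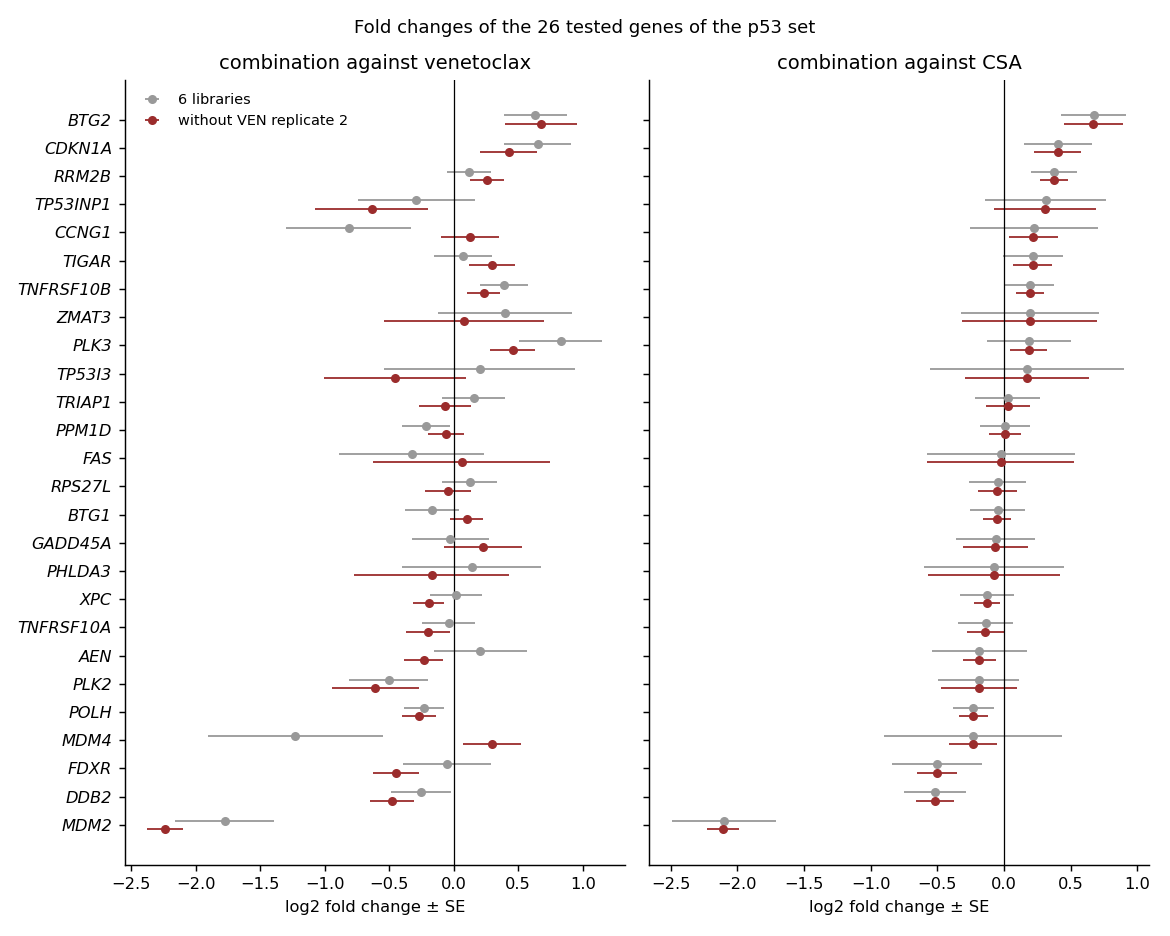
Log2 differences of the combination from venetoclax and from CSA for the 26 tested members with bars of 1 SE, from 6 libraries (grey) and from the fit without venetoclax replicate 2 (red). MDM2 lies at -2.24 and -2.11 without that library, and in that fit the others lie between -0.64 and 0.68.

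Of the 6 cell cycle arrest genes, CDKN1A, BTG2 and PLK3 had both combination libraries above all 4 single-agent libraries. Of all genes, 19.2% lay wholly above venetoclax and 23.5% wholly above CSA, and the share above both was not counted. None of the 3 passed the test over 6 libraries. Without venetoclax replicate 1, the differences of CDKN1A and PLK3 from venetoclax were 0.94 and 1.36. CDKN1A (p21), the inhibitor of cyclin-dependent kinases that is the best known output of p53, was at 6.42 and 5.38 CPM with the combination, 4.41 and 3.08 CPM with venetoclax, and 4.30 and 4.62 CPM with CSA. The level of CDKN1A was low in all 6 libraries. The CDKN1A difference was 0.65 (SE 0.26, adjusted p = 0.453) from venetoclax and 0.40 (SE 0.25, adjusted p = 1.00) from CSA. Without venetoclax replicate 2 it was 0.43 (SE 0.22, adjusted p = 0.419) and 0.40 (SE 0.18, adjusted p = 0.446), so it did not pass in either.

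BTG2, an antiproliferative protein that promotes shortening of messenger RNA tails, was at 18.0 and 27.4 CPM with the combination, against 14.2 and 15.01 with venetoclax and 14.2 and 14.2 with CSA. The 4 single-agent values were almost equal, and the 2 combination values were higher but far apart. The BTG2 difference was 0.63 (SE 0.24, adjusted p = 0.447) from venetoclax and 0.67 (SE 0.24, adjusted p = 1.00) from CSA, and 0.68 (SE 0.28, adjusted p = 0.336) and 0.67 (SE 0.22, adjusted p = 0.382) without venetoclax replicate 2. PLK3, a stress-responsive polo-like kinase, was at 12.3 and 12.2 CPM with the combination, 8.95 and 4.77 with venetoclax, and 10.05 and 11.5 with CSA. The PLK3 difference from venetoclax was 0.83 (SE 0.32, adjusted p = 0.447), 0.46 (SE 0.17, adjusted p = 0.313) without replicate 2, and from CSA 0.19 (SE 0.32, adjusted p = 1.00), with 0.19 (SE 0.14, adjusted p = 0.603) in the fit of 5 libraries.

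The remaining arrest genes did not separate upward. GADD45A, which binds proliferating cell nuclear antigen and cyclin-dependent kinase complexes, ranged over 5.22 to 8.11 CPM with both ends in the combination libraries. BTG1, a relative of BTG2, was at 34.1 and 37.1 CPM with the combination and 33.3 to 46.7 CPM elsewhere. PLK2, another polo-like kinase, had few reads, at 1.02 CPM in both combination libraries, against 1.12 to 1.56 CPM in the others, and its difference from venetoclax was -0.50 (SE 0.31, adjusted p = 0.568), and -0.61 (SE 0.34, adjusted p = 0.448) without replicate 2.

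No death gene was called in either fit. TNFRSF10B, which encodes the TRAIL death receptor DR5, was at 67.9 and 60.4 CPM with the combination, 54.8 and 43.0 CPM with venetoclax and 55.1 and 57.2 CPM with CSA. The combination libraries were above all others, by 0.39 (SE 0.18, adjusted p = 0.507) on the log2 scale against venetoclax and 0.19 (SE 0.18, adjusted p = 1.00) against CSA, and by 0.23 (SE 0.13, adjusted p = 0.444) and 0.19 (SE 0.10, adjusted p = 0.507) without venetoclax replicate 2. The sister receptor TNFRSF10A did not separate, at 24.9 and 20.5 CPM with the combination and 20.5 to 26.2 CPM with the single agents. FAS, the receptor of FAS ligand, was barely expressed, with 12 to 24 counts per library.

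AEN, a nuclease induced by p53 in apoptosis and one of the genes with a promoter match printed above, was at 48.9 and 40.9 CPM with the combination, 52.5 and 49.5 with CSA, and 52.9 and 24.7 with venetoclax. The AEN difference from CSA was -0.18 (SE 0.36, adjusted p = 1.00), and -0.19 (SE 0.13, adjusted p = 0.573) without venetoclax replicate 2. From venetoclax it was 0.21 (SE 0.36, adjusted p = 0.834), and -0.23 (SE 0.15, adjusted p = 0.508) without replicate 2, its lowest library. TRIAP1, a small mitochondrial protein that protects from apoptosis, was at 24.96 and 19.1 CPM with the combination and 16.4 to 23.1 CPM elsewhere. RPS27L, a relative of a ribosomal protein, was at 24.6 and 19.9 CPM with the combination and 17.7 to 23.0 elsewhere. ZMAT3, an RNA-binding protein downstream of p53, differed as much between replicates, at 4.10 and 9.78 CPM with CSA, as between groups. TP53I3, PHLDA3 and TP53INP1 had between 5 and 43 counts per library. Low counts are more often even than odd in every library (64.8% to 66.7% of counts of 1 to 20 are even, against 49.0% to 51.0% of counts of 100 or more), and what this does to their error was not tested.

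Of the 4 repair and nucleotide supply genes, 3 were below 0 against CSA and RRM2B was above, with a median of -0.18 and 0 called. DDB2, the damage recognition factor of nucleotide excision repair and the member with the exact promoter match, was at 14.9 and 15.4 CPM with the combination, 23.7 and 19.7 CPM with CSA, and 21.1 and 14.9 CPM with venetoclax. The combination libraries were below both CSA libraries and below venetoclax replicate 1, but level with venetoclax replicate 2. The DDB2 difference from CSA was -0.52 (SE 0.23, adjusted p = 1.00), and -0.52 (SE 0.14, adjusted p = 0.350) without venetoclax replicate 2. From venetoclax it was -0.25 (SE 0.23, adjusted p = 0.695) and -0.48 (SE 0.17, adjusted p = 0.289) without replicate 2.

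RRM2B, the p53-inducible small subunit of ribonucleotide reductase, which supplies deoxynucleotides for repair, was at 51.9 and 58.8 CPM with the combination, 43.0 and 42.3 CPM with CSA, and 46.4 and 55.4 CPM with venetoclax. The RRM2B difference from CSA was 0.37 (SE 0.17, adjusted p = 1.00), and 0.37 (SE 0.11, adjusted p = 0.355) without venetoclax replicate 2. POLH, a polymerase that copies past damaged bases, was at 23.9 and 25.2 CPM with the combination and 28.0 to 29.7 CPM in the 4 others, a narrow separation of -0.23 (SE 0.16, adjusted p = 0.607) from venetoclax that turned to 0.03 when scaled by library size alone and was -0.27 (SE 0.13, adjusted p = 0.396) without venetoclax replicate 2. XPC, which opens nucleotide excision repair, was at 42.8 and 42.3 CPM with the combination, 44.7 and 48.1 with CSA and 48.8 and 35.1 with venetoclax.

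Of the metabolic members, FDXR, ferredoxin reductase of the mitochondrial electron transfer chain that serves steroid and iron-sulfur synthesis, was at 5.97 and 6.14 CPM with the combination, 9.06 and 8.10 CPM with CSA, and 8.27 and 4.19 CPM with venetoclax. The FDXR difference from CSA was -0.50 (SE 0.34, adjusted p = 1.00) and -0.50 (SE 0.15, adjusted p = 0.361) without venetoclax replicate 2. From venetoclax it was -0.05 (SE 0.34, adjusted p = 0.962), or 0.11 when scaled by library size alone, and -0.44 (SE 0.18, adjusted p = 0.332) without replicate 2. As with DDB2, both combination libraries were under both CSA libraries. TIGAR, which lowers glycolytic flux, was at 13.3 and 15.05 CPM with the combination, 11.4 and 12.995 with CSA and 11.6 and 15.5 with venetoclax. EDA2R, PERP, SPATA18 and CMBL were not tested, with at most 2 counts in any library.

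Counting the members whose combination libraries lay wholly outside those of the other group gives a second description of the same libraries. Against venetoclax 4 of 26 were higher (CDKN1A, BTG2, PLK3 and TNFRSF10B) and 4 lower (MDM2, PPM1D, PLK2 and POLH), beside 19.2% and 18.9% of all genes. Against CSA 6 were higher, with RRM2B and TIGAR joining the first 4, and 7 lower (MDM2, PLK2, AEN, XPC, DDB2, POLH and FDXR), beside 23.5% and 23.7% of all genes. At an unadjusted p below 0.05, 4 of 26 members passed against venetoclax (BTG2, CDKN1A and PLK3 higher, MDM2 lower), beside 10.8% of all genes, and 2 of 26 against CSA (BTG2 higher, MDM2 lower), beside 3.64%. In the fit without venetoclax replicate 2 the members were PLK3 higher and DDB2 and MDM2 lower against venetoclax (background 15.5%), and BTG2 and RRM2B higher and DDB2, FDXR and MDM2 lower against CSA (background 12%).

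**Figure D4:**
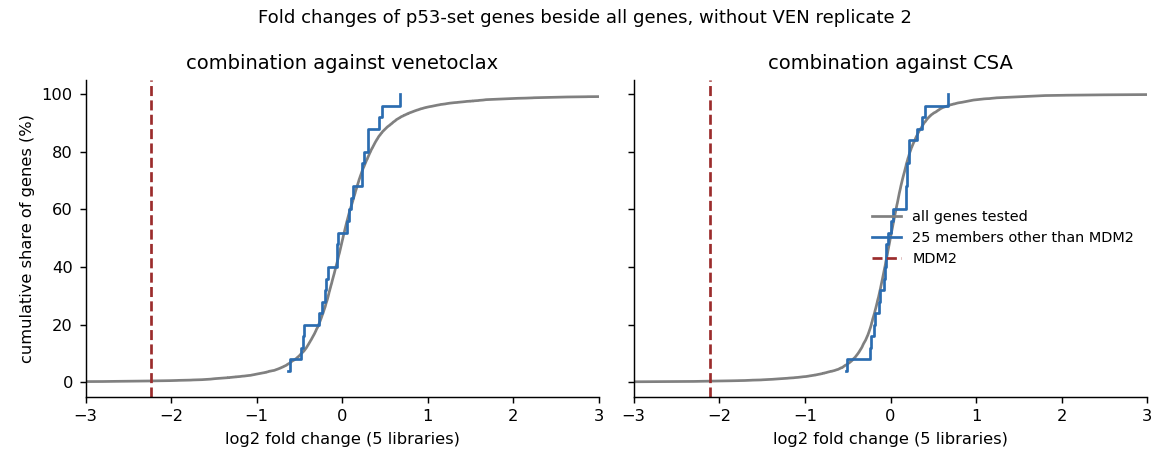
Cumulative share of genes by log2 difference of the combination from venetoclax and from CSA, for all tested genes (grey) and the 25 tested members other than MDM2 (blue), from the fit without venetoclax replicate 2. The blue curve follows the grey one, with medians of -0.04 and -0.02, and the dashed line of MDM2 lies at the far left.

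Comparing levels between genes per kilobase of exon, TRIAP1 had the highest group mean of the tested members with CSA, at 14.99 CPM per kb, and with the combination, at 15.3. CCNG1 followed at 12.6 and 14.7 CPM per kb, and was highest with venetoclax at 25.9, where replicate 2 held 118.6 CPM of it against 41.8 CPM in replicate 1. MDM2 was at 4.39 CPM per kb with CSA, 3.50 with venetoclax and 1.02 with the combination. FAS and TP53INP1 had the lowest means in all 3 groups, from 0.132 to 0.198 CPM per kb.

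No member separated venetoclax from CSA in the test over 6 libraries or without venetoclax replicate 2. With 6 libraries 0 of 26 members was called (0% of all genes), and none passed an unadjusted p below 0.05, beside 4.8% of all genes (4.78% without venetoclax replicate 2, where again 0 members passed). DESeq2 called 0 members, beside 0.496% of all genes. Of the 26 members 11 were above and 15 below 0. The split was 4 and 22 when scaled by library size alone, beside 2527 above and 10163 below over all genes. The largest differences were CCNG1 at 1.04 (SE 0.49, adjusted p = 0.633) and MDM4 at 1.00 (SE 0.67, adjusted p = 0.633), both carried by venetoclax replicate 2, and PLK3 at -0.64 (SE 0.32, adjusted p = 0.633), or -0.27 without that library. Without that library CCNG1 was at 0.09 and MDM4 at -0.53 (SE 0.22, adjusted p = 0.999), and 0 of 26 was called. TP53INP1 was then at 0.95 (SE 0.44, adjusted p = 0.999), from 43 counts in venetoclax replicate 1 against 20 and 28 with CSA, and RRM2B and FDXR at 0.12 and -0.06. PLK2 was at 0.42 (SE 0.34) and BTG1 at -0.15 (SE 0.13), both with adjusted p = 0.999. With replicate 1 left out in place of replicate 2, 6 members were called between venetoclax and CSA (MDM2, MDM4, CCNG1, PLK3, AEN and FDXR), beside 33.8% of all genes, and MDM2 was at -1.03 with adjusted p = 0.0169.

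Lists beyond the members gave no calls with edgeR over 6 libraries or without venetoclax replicate 2. Without venetoclax replicate 1, where 26.4% of all genes were called against venetoclax, 1 of 30 regulators was called higher and 6 lower, 5 and 5 of 35 further targets, and 1 and 10 of 19 p21-DREAM targets, with none called in the combination against CSA. Of 30 further regulators and cofactors of p53, all tested, 9 were above and 21 below 0 against venetoclax, with a median of -0.15, and 14 above and 16 below without replicate 2, with a median of -0.07. Scaled by library size alone the split was 22 above and 8 below, beside 9653 above and 3036 below over all genes. Against CSA 11 were above and 19 below, with a median of -0.06. Of 43 further p53 targets, 34 were tested, and 23 were above and 11 below 0 against venetoclax, with a median of 0.17. That lean went to 19 above and 16 below of 35 tested, with a median of 0.02, once venetoclax replicate 2 was left out. Against CSA the split was 17 and 17, with a median of 0.01.

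The further targets described here pointed in different directions. Over 6 libraries, 6 of 34 were higher and 2 lower against venetoclax at an unadjusted edgeR p below 0.05, beside 10.8% of all genes. Against CSA 3 were higher and 1 lower, beside 3.64%. Of the 30 regulators and cofactors, 3 passed that threshold against venetoclax, all lower (CHEK1, PPP1R13B and TRIM24), and 0 against CSA. SESN2, sestrin 2, which restrains mTOR complex 1 and answers to amino acid stress as well as to p53, was at 25.7 and 22.6 CPM with the combination and 19.1 and 19.9 with CSA, against 7.79 and 5.25 with venetoclax. The SESN2 difference from venetoclax was 1.88 (SE 0.25, adjusted p = 0.111), and 1.63 (SE 0.17, adjusted p = 0.0501) without replicate 2, which is just outside the threshold. E2F7, a repressor of cell cycle genes, was at 4.68 and 5.34 CPM with the combination, under all 4 single-agent libraries at 8.49 to 12.1 CPM, a difference of -1.15 (SE 0.21, adjusted p = 0.188) from venetoclax and -0.77 (SE 0.20, adjusted p = 1.00) from CSA. The E2F7 differences without venetoclax replicate 2 were -1.02 (adjusted p = 0.115) and -0.77 (adjusted p = 0.230). APAF1, the scaffold of the apoptosome, was at 39.3 and 32.1 CPM with the combination and 75.1 and 56.9 with venetoclax, a difference of -0.89 (SE 0.21, adjusted p = 0.285), and -1.07 (SE 0.16, adjusted p = 0.0845) without replicate 2. DESeq2 on all 6 libraries called these 3 further targets against venetoclax, with adjusted p = 4.55e-08 for SESN2, 0.00262 for E2F7 and 0.0254 for APAF1, and called no gene of these lists in the combination against CSA. Between venetoclax and CSA it called SESN2, at -1.57 with adjusted p = 5.39e-05, where edgeR gave -1.57 (SE 0.25, adjusted p = 0.575), and -1.33 (SE 0.17, adjusted p = 0.193) without venetoclax replicate 2.

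The death genes that p53 controls at the mitochondrion were not called over 6 libraries. BAX, a pore-forming member of the BCL2 family, was at 85.4 and 76.4 CPM with the combination and 67.3 to 90.6 CPM elsewhere. BBC3 (PUMA), a BH3-only protein, was at 3.42 and 2.40 CPM with the combination and 0.849 to 3.54 CPM elsewhere. PMAIP1 (NOXA), another BH3-only protein, was at 15.3 and 16.5 CPM with the combination, 14.4 and 15.5 with CSA, and 13.8 and 25.4 with venetoclax. Without venetoclax replicate 1, BBC3 was at 1.78 and PMAIP1 at -0.67 on the log2 scale in the combination against venetoclax. In venetoclax against CSA the directions were swapped, at -1.84 for BBC3 and 0.76 for PMAIP1. Venetoclax replicate 2 was then the whole venetoclax group.

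Genes that p53 represses indirectly, through p21 and the DREAM complex, leaned lower against venetoclax. Of the 19 tested, 17 were below 0 against venetoclax, with a median of -0.48, and 19 of 19 without replicate 2, with a median of -0.33 beside 0.0069 over all genes. Scaled by library size alone 13 of 19 were below 0, beside 3036 of 12690 over all genes. The median was then -0.20 for the 19 and 0.26 over all genes. Against CSA 14 of 19 were below 0, with a median of -0.09, and 0 was called over 6 libraries or without venetoclax replicate 2. Venetoclax itself was above CSA for 17 of the 19 (median 0.32) and for 19 of 19 without replicate 2 (median 0.19). When scaled by library size alone it was above for 8 of 19, beside 2527 of 12690 over all genes. The 2 comparisons are therefore not equal in what they set the combination against. MYBL2, a cell cycle transcription factor and the gene of this list with the smallest p, was at 214 and 256 CPM with the combination, 332 and 347 with CSA and 387 and 546 with venetoclax. The MYBL2 difference was -0.99 (SE 0.21, adjusted p = 0.255) from venetoclax and -0.53 (SE 0.21, adjusted p = 1.00) from CSA. In the fit of 5 libraries it was -0.71 (adjusted p = 0.133) and -0.53 (adjusted p = 0.249), and over all libraries DESeq2 called it against venetoclax with adjusted p = 0.00853. These genes belong to the cell cycle programme in general, and their part in the p53 circuit was not tested.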

How the data were processed

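The values are whole-number counts per gene that the authors deposited as 1 table, without normalization. The submitters' processing notes name STAR, RSEM, DESeq2 and the build hg38, with no versions or roles. Per the labels' protocols, RNA came from Trizol extraction and was sequenced from KAPA RNA HyperPrep libraries as 150-bp pairs. The treatment entry of the labels names gavage and was not used. Of the table's columns, 2 match no label and were not used.

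EdgeR 4.0.16 (R 4.3.3) tested the 12690 genes that pass filterByExpr, by glmQLFit (robust) and glmQLFTest, two-sided, with TMM scaling and 1 fit of the 3 groups. Limma 3.58.1 and DESeq2 1.42.0 served as alternatives, beside other scalings and filters, a replicate block and leaving out each library in turn. Removal of mitochondrial genes, and the block or DESeq2 without venetoclax replicate 2, were added after seeing the data. Fold change estimates were checked on simulated counts, in which every library had the same spread and none stood apart. That check set no limit on false calls and did not cover the unequal replicate spread seen here. Symbols matched for 20148 of 20263 identifiers, and coordinates are from GENCODE 29 (GRCh38). Promoter sequences are from RefSeq on GRCh38.p14. No set test was run.

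Described in full are MDM2, MDM4, CDKN1A and, per comparison, the 4 other members with the smallest p with all libraries and without venetoclax replicate 2, and up to 3 genes of each further list. Other members carry levels, and a few carry differences. The members and lists were chosen with earlier results of these data known. The p53 transcript is not reported here.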

Additional observations from a re-analysis of the deposited data

How the results depend on the processing

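MDM2 was lower in the combination under all 16 alternatives in both comparisons, from -2.29 to -1.08 on the log2 scale against venetoclax and from -2.220 to -1.995 against CSA. It passed the threshold in 5 and 6 of the 16. DESeq2 called 311, 56 and 63 genes in the combination against venetoclax, in the combination against CSA and between the single agents, with 1 member (MDM2) in each of the first 2, at -1.78 and -2.10. Without venetoclax replicate 2, DESeq2 called 478, 250 and 107 genes, with 1 member in each of the first 2 and MDM2 at -2.24, -2.11 and 0.13. No filter on low counts gave 15, 4 and 2 genes, limma-voom gave 1 gene against CSA, and a fit of only the 4 libraries compared gave 24 genes and 1 member against CSA, with MDM2 at -2.11.

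The replicate numbers are shared between groups, but 2 pairs per comparison do not show that a number marks a shared batch. Differences between replicates correlated across 12690 genes at 0.25 (venetoclax and CSA), 0.34 (venetoclax and combination) and 0.24 (CSA and combination). A replicate block on all 6 libraries called 0 genes in each comparison, with MDM2 at -1.71 (adjusted p = 0.197) and -2.09 (adjusted p = 0.4996), and turned FDXR against venetoclax to 0.0049. The block without venetoclax replicate 2 called 229, 72 and 16 genes, with 1 member in each of the first 2 and MDM2 at -2.29, -2.11 and 0.18.

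Scaled by library size alone, the median of the members was 0.26 against venetoclax and -0.38 for venetoclax against CSA, POLH and FDXR against venetoclax were 0.028 and 0.11, and BTG1 and RRM2B for venetoclax against CSA were -0.26 and -0.093.

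Leaving out each library in turn gave 0 to 3426 genes against venetoclax, 0 to 24 against CSA and 0 to 4385 for venetoclax against CSA, with the upper ends of the first and last reached without venetoclax replicate 1. Members called ranged from 0 to 7, 0 to 1 and 0 to 6, and their medians from -0.059 to 0.19, from -0.054 to 0.023 and from -0.34 to 0.041. MDM2 ranged from -2.24 to -1.08, from -2.220 to -1.995 and from -1.03 to 0.13. Values whose sign turned against venetoclax were CCNG1 (-1.38 to 0.13), DDB2 (-0.48 to 0.022), FDXR (-0.44 to 0.53) and MDM4 (-1.96 to 0.30). Values whose sign turned for venetoclax against CSA were BTG1 (-0.15 to 0.34) and MDM4 (-0.53 to 1.72). Among the 48 member differences whose values are not printed, 36 turned sign when some library was left out and 13 under another setting. No member was called with all 6 libraries and edgeR, and the cause of the turns was not tested.

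Depth limits FAS, TP53I3, PHLDA3, TP53INP1 and PLK2, whose counts did not pass 46 in any library. Over 6 libraries 13 of 25 other members had intervals inside 2-fold in each comparison with the combination.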
